A study of Homo sapiens with 9 samples.

Results

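Mitosis, kinetochore and condensin genes encode the machinery that condenses, aligns and separates the chromosomes of a dividing cell. A fixed list of 46 such genes, chosen by name for their known roles, was followed among the 27677 genes of a count table from Caco-2 cells. The list was chosen with earlier results of these data known. All 46 were in the table and passed the filter on low counts, with totals over the 9 libraries of 1318 counts (SPC24) to 41585 counts (NCAPD2). Caco-2 is an established line of human colon adenocarcinoma cells. The cells were kept in aMEM with lipid-depleted fetal bovine serum, and polyadenylated RNA was sequenced. The groups, of 3 libraries each, were lovastatin with SGA360, lovastatin with SGA315, and lovastatin alone. Lovastatin, an inhibitor of HMG-CoA reductase in sterol synthesis, was present in all 9 libraries at 10 µM for 48 h. SGA360 and SGA315 bind AHR, the aryl hydrocarbon receptor, a transcription factor that small molecules activate, and each was given at 10 µM. The data hold no group without lovastatin, so each ligand was compared with lovastatin alone, and the ligands with each other at the same dose and time. All groups come from this line. Whether the replicates of a group were grown as separate cultures is not stated, so p-values here reflect library-to-library spread that may be only technical.

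In textbook terms, CDK1 bound to cyclin B drives entry into mitosis, and condensin with topoisomerase II compacts the chromosomes. Kinetochores, built on centromeric chromatin marked by CENP-A, then attach each chromosome to the spindle. The spindle assembly checkpoint holds back the anaphase-promoting complex until all are attached, after which securin and cyclin B are destroyed and separase cuts cohesin. Genes of this kind are typically transcribed late in the cell cycle, and many have promoters with CCAAT boxes, bound by NF-Y, or a cell cycle homology region with the core TTTGAA, bound by the DREAM and MuvB complexes with MYBL2 and FOXM1. In the intestine, dividing cells sit in the crypts, and MKI67 is the usual stain for them.

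Promoter sequences in RefSeq (GRCh38.p14) were matched by symbol for 37 of the 46 genes, in 49 windows, since 8 genes have several windows that share bases. AURKA, BIRC5, BUB3, TTK, CENPH, CENPM, KNL1, UBE2C and TPX2 had no window in the table used. The last 100 bases before the RefSeq start of 8 genes are printed 5′ to 3′ on the strand of the gene. MKI67 is shown as the gene that fell most with SGA360, CCNB1, PLK1, ESPL1 and PRC1 as genes that fell with both ligands, CCNB2 for its smaller fall, CDC20 as a gene on which the ligands differed, and CDC25C as the gene called with neither ligand. Capitals mark TTTGAA or its reverse complement TTCAAA, and CCAAT or its reverse complement ATTGG. In MKI67 the second TTTGAA shares 1 base with an ATTGG. For CDC25C, which has 4 windows, the first that holds TTTGAA in this stretch is shown.
MKI67, chr10:128126424-128126523, minus strand: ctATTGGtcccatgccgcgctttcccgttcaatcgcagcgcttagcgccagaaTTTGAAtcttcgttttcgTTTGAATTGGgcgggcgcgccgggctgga
CCNB1, chr5:69167050-69167149, plus strand: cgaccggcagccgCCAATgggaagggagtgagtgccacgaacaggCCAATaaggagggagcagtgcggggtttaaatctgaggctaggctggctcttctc
CCNB2, chr15:59105046-59105145, plus strand: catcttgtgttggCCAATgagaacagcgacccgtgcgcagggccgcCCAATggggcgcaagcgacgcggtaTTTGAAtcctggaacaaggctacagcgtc
PLK1, chr16:23678789-23678888, plus strand: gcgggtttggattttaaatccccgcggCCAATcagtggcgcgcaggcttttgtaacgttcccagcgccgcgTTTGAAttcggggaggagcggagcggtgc
CDC20, chr1:43358881-43358980, plus strand: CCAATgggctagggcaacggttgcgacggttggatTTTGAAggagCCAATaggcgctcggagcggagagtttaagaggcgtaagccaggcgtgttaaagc
PRC1, chr15:90994536-90994635, minus strand: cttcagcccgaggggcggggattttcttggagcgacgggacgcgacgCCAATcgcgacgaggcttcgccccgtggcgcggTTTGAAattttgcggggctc
ESPL1, chr12:53268199-53268298, plus strand: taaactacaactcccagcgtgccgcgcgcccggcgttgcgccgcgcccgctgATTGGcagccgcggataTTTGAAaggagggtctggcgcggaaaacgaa
CDC25C, chr5:138331805-138331904, minus strand: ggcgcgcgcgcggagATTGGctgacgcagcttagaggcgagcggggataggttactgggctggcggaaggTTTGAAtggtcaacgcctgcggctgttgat

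In these stretches CCNB1 has 2 CCAAT boxes and no TTTGAA, while the other genes printed have both motifs. The 250 bases before the start were searched on both strands for TTTGAA, its variant TTCGAA and CCAAT. The core, TTTGAA or TTCGAA, was present in a window of 19 of 37 genes (51.4%), against 17.2% of all 27305 genes in the promoter table. CCAAT was present in 28 genes (75.7%), against 37.0% of all genes. It occurred 2 or more times in a window of 48.6% of the mitotic genes, against 11.5% of all genes. Both motifs were found, in the same or in different windows of a gene, in 40.5% of the mitotic genes, against 7.38% of all genes. Within a single window both were found in 32.7% of the windows of mitotic genes, against 5.05% of all windows. The 5 genes with neither motif in these letters were CENPI, NDC80, NUF2, CENPE and SMC2, and none of them is printed above. The genes printed were picked by hand and do not stand for all 37. CENPI, SMC2 and CENPE fell with both ligands, CENPI most of them, while NDC80 and NUF2 fell with SGA360 and were not called with SGA315. Whether motifs and changes go together was not tested. A match of letters is a description, and no binding was measured.

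**Figure D1:**
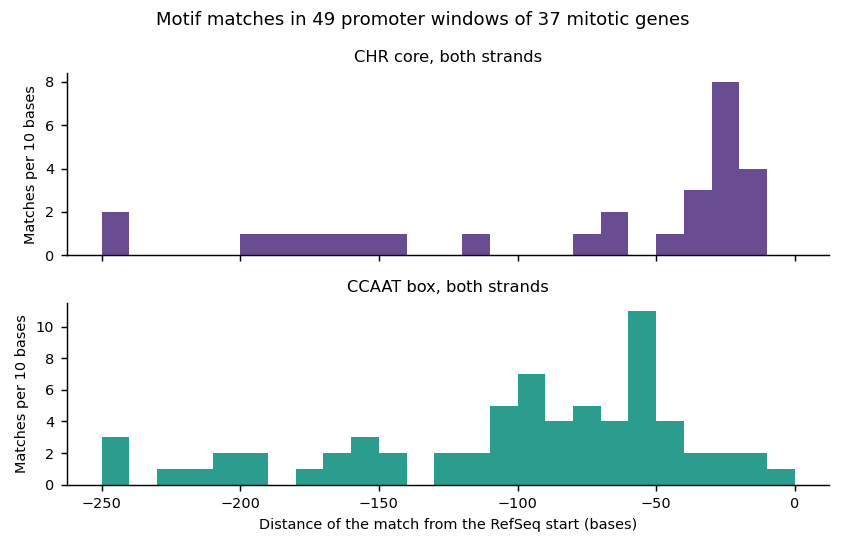
Positions of motif matches in the 49 promoter windows of 37 mitotic genes, as matches per 10 bases against the distance from the RefSeq start in bases, with the cell cycle homology region (CHR) core TTTGAA or TTCGAA above and the CCAAT box below. Of 28 matches to the CHR core, 15 lie 11 to 40 bases before the start, and 40 of 68 CCAAT matches lie 41 to 110 bases before it, stretches chosen after the positions were seen. A site in overlapping windows of a gene is counted in each window that holds it.

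With SGA360, 43 of the 46 genes fell, none rose, and CDC25C, CENPH and CENPK were not called (edgeR quasi-likelihood test, adjusted p under 0.05 over 14678 genes). The background was high, since 31.4% of all genes tested were called lower in this comparison and 31.4% higher. The median log2 fold change of the 46 genes was -0.47, against 0.02 over all genes. With SGA315, 43 genes fell and none rose, and CDC25C, NDC80 and NUF2 were not called, where 33.2% of all genes were called lower and 36% higher. Their median was -0.55, against 0.04 over all genes. Both comparisons use the same 3 lovastatin libraries. Tested against a change of 1.5-fold, a test added after the data were seen, 10 genes were lower with SGA360 (2.77% of all genes) and 17 with SGA315 (5.12% of all genes). None was higher with either ligand, against 2.92% of all genes with SGA360 and 5.63% with SGA315. In 43 genes for each ligand, the CPM of all 3 ligand libraries lay below those of all 3 lovastatin libraries, against 32.9% of all genes with SGA360 and 33.8% with SGA315. The reverse, all ligand libraries above, held for none with SGA360 (33.4% of all genes) and for CDC25C with SGA315 (36.6% of all genes).

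Levels are CPM, the counts scaled to a common library size with TMM factors. Levels of cell type markers are CPM scaled to library totals only. The summed level of the 46 genes was 3757, 3776 and 3666 CPM in the SGA360 libraries, 3580, 3593 and 3635 CPM in the SGA315 libraries, and 5385, 5316 and 5350 CPM with lovastatin alone. The ligand libraries all lay below those with lovastatin alone, and the sums with SGA315 lay below those with SGA360. On average the sum was 69.8% of the lovastatin level with SGA360 and 67.3% with SGA315. In RNA from whole cultures, fewer cells in mitosis and less RNA of these genes per cell cannot be told apart.

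The choice of scaling moved all log2 fold changes together. Scaling to library totals alone raised the median of all genes by 0.114 with SGA360 and by 0.121 with SGA315. Of all genes tested, 3138 were then lower and 6464 higher with SGA360, against 4604 lower and 4606 higher with TMM, and 3628 were lower and 6926 higher with SGA315, against 4872 lower and 5285 higher with TMM. The median of the 46 genes was then -0.36 with SGA360 and -0.43 with SGA315. Under it 40 genes were lower and 1 higher with SGA360 (CENPH, 0.21, adjusted p = 0.00107), and 39 lower and 1 higher with SGA315 (CDC25C, 0.18, adjusted p = 0.00308).

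**Figure D2:**
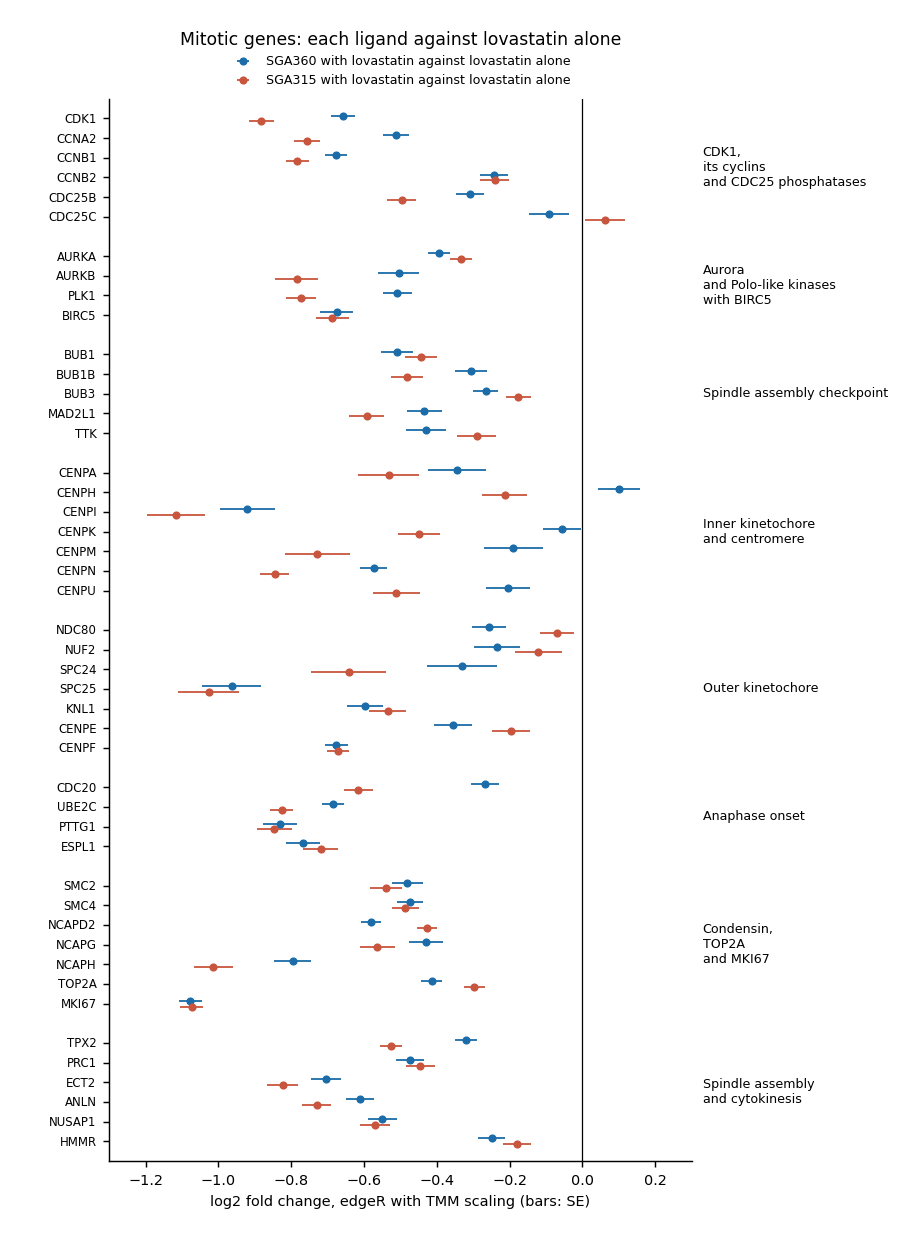
Log2 fold change of the 46 mitotic genes, grouped by role, for SGA360 with lovastatin (blue) and SGA315 with lovastatin (red), each against lovastatin alone, with bars for the standard error. Points of 43 genes for each ligand are called lower, and the values reach -1.08 for MKI67 with SGA360 and -1.12 for CENPI with SGA315.

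Depth was 12334085 to 16870134 counts per library, and all 9 libraries correlated best with a library of their own group. Marker levels here are CPM scaled to library totals only, unlike those of the mitotic genes. Of 8 markers of intestinal epithelium, 7 were above 1 CPM, while KRT20 was under 1 CPM in all libraries. Their summed level was 5510 to 5890 CPM with SGA360, 4020 to 4120 CPM with SGA315 and 6950 to 7000 CPM with lovastatin alone. Of 6 fibroblast markers 5 were under 1 CPM in all libraries, and the sum, nearly all from PDGFRA, was 174 to 183 CPM with SGA360, 193 to 194 CPM with SGA315 and 341 to 345 CPM with lovastatin alone. Of 5 immune markers 3 were under 1 CPM, with sums of 9.73 to 10.4 CPM with SGA360, 10.8 to 13 CPM with SGA315 and 13.5 to 15.1 CPM with lovastatin alone. Of 4 endothelial markers KDR was at 0, with sums of 1.72 to 2.59 CPM with SGA360, 2.56 to 3.18 CPM with SGA315 and 1.66 to 2.9 CPM with lovastatin alone. The epithelial, fibroblast and immune sums were lower with both ligands, as were the mitotic genes, but their members did not all move together. KRT8, the largest part of the epithelial sum, had 2527 to 2810 CPM with SGA360, 1463 to 1592 CPM with SGA315 and 3272 to 3314 CPM with lovastatin alone. CDX2, an intestinal transcription factor, went the other way, with 81.7 to 82.8 CPM with SGA360, 119.8 to 121.6 CPM with SGA315 and 70.98 to 72.4 CPM with lovastatin alone. In the immune sum, LYZ had 3.76 to 4.38 CPM with SGA360, 4.89 to 5.90 CPM with SGA315 and 8.77 to 10.6 CPM with lovastatin alone, while CD68 had 4.78 to 6.59 CPM with SGA360, 5.59 to 6.31 CPM with SGA315 and 4.18 to 4.61 CPM with lovastatin alone. The part of these markers in the results was not tested.

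Of the 6 genes for CDK1, its cyclins and the CDC25 phosphatases, 5 fell with each ligand, with medians of -0.41 with SGA360 and -0.63 with SGA315. CDK1, the kinase that drives mitotic entry, had 145, 144 and 138 CPM in SGA360 libraries, 120.1, 132 and 115 CPM in SGA315 libraries, and 228, 224 and 224 CPM with lovastatin alone. The groups did not overlap, and SGA315 libraries were lowest. The log2 fold change of CDK1 was -0.66 ± 0.033 (SE, adjusted p = 2.26e-27) with SGA360 and -0.88 ± 0.034 (adjusted p = 9.73e-34) with SGA315. CCNB1, cyclin B1, had 171, 169 and 162 CPM in SGA360 libraries, 159.7, 157 and 149 CPM in SGA315 libraries, and 269.9, 260.3 and 272 CPM with lovastatin alone. All ligand libraries lay far below lovastatin alone. It fell by 0.68 ± 0.030 on the log2 scale with SGA360 and by 0.78 ± 0.031 with SGA315, to 62.5% of its lovastatin level with SGA360 and 58.1% with SGA315. CCNA2, cyclin A2, fell by 0.51 ± 0.035 with SGA360 and by 0.76 ± 0.037 with SGA315, and shares exon bases with EXOSC9 (29.7% of its counts). EXOSC9 itself had log2 fold changes of -0.29 with SGA360 and -0.35 with SGA315.

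CCNB2, cyclin B2, had a smaller fold change than CCNB1, a gap that was not tested. Its level was 77.1, 75.5 and 77.1 CPM in SGA360 libraries, 76.3, 74.8 and 78.9 CPM in SGA315 libraries, and 90.3, 88.3 and 92.9 CPM with lovastatin alone, so that both ligand groups lay below lovastatin alone and overlapped each other. It fell by 0.24 ± 0.039 with each ligand. CDC25B, a phosphatase that activates CDK1, fell by 0.31 ± 0.039 with SGA360 and by 0.50 ± 0.040 with SGA315. CDC25C, a phosphatase of the same family, had 32.9, 31.0 and 33.6 CPM in SGA360 libraries, 35.5, 36.9 and 35.7 CPM in SGA315 libraries, and 34.9, 34.7 and 34.0 CPM with lovastatin alone. The SGA360 values lay just below and the SGA315 values just above those with lovastatin alone. Its log2 fold change was -0.09 ± 0.056 with SGA360 (adjusted p = 0.148, 95% interval -0.20 to 0.02) and 0.06 ± 0.056 with SGA315 (adjusted p = 0.324, 95% interval -0.05 to 0.17). CDC25C shares exon bases with FAM53C on the other strand, which held 289% of its counts, and the strand setting of the counting is not given, so its value is uncertain.

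All 4 genes of the Aurora and Polo-like kinase group fell with both ligands, with medians of -0.51 with SGA360 and -0.73 with SGA315. PLK1, a kinase of spindle assembly and mitotic entry, had 85.2, 83.9 and 74.8 CPM in SGA360 libraries, 65.6, 72.1 and 66.4 CPM in SGA315 libraries, and 119, 116 and 114 CPM with lovastatin alone. Its 3 groups were separate, in the order SGA315, SGA360 and lovastatin alone from low to high. PLK1 was 1.42-fold lower with SGA360 and 1.71-fold lower with SGA315. AURKB, the kinase of the chromosomal passenger complex, had 29.6, 29.8 and 29.04 CPM in SGA360 libraries, 22.4, 25.5 and 25.1 CPM in SGA315 libraries, and 41.6, 41.1 and 42.9 CPM with lovastatin alone. Its groups were separate in the same order as those of PLK1. BIRC5, survivin, a subunit of that complex, fell by 0.68 ± 0.046 with SGA360 and by 0.69 ± 0.046 with SGA315. AURKA, the centrosomal kinase, had the smallest fall of the 4, by 0.39 ± 0.030 with SGA360 and by 0.33 ± 0.030 with SGA315. Its level was 178, 172 and 176 CPM in SGA360 libraries, 179, 188 and 182 CPM in SGA315 libraries, and 228, 232 and 232 CPM with lovastatin alone.

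The 5 genes of the spindle assembly checkpoint fell with both ligands, with medians of -0.43 with SGA360 and -0.44 with SGA315. None of them passed the test against 1.5-fold with either ligand. BUB1, a kinetochore kinase of the checkpoint, fell by 0.51 ± 0.044 with SGA360 and by 0.44 ± 0.044 with SGA315. BUB1B, the BubR1 subunit of the checkpoint complex, fell by 0.31 ± 0.043 with SGA360 and by 0.48 ± 0.045 with SGA315, and shares exon bases with the readthrough BUB1B-PAK6 (55.8% of its counts). The readthrough had log2 fold changes of -0.38 with SGA360 and -0.33 with SGA315. MAD2L1, which binds and inhibits CDC20, had 44.8, 41.8 and 44.0 CPM in SGA360 libraries, 37.9, 39.98 and 39.0 CPM in SGA315 libraries, and 56.9, 58.4 and 60.9 CPM with lovastatin alone. TTK, the Mps1 kinase, had 35.1, 30.8 and 34.3 CPM in SGA360 libraries, 38.0, 37.2 and 34.7 CPM in SGA315 libraries, and 45.3, 43.2 and 45.9 CPM with lovastatin alone. Both genes lay below lovastatin alone in all ligand libraries, MAD2L1 lowest with SGA315 and TTK with overlapping ligand groups. BUB3, which recruits BUB1 and BubR1, fell by 0.27 ± 0.034 with SGA360 and by 0.18 ± 0.034 with SGA315. With totals-only scaling the SGA315 value of BUB3 was -0.06 and was no longer called (adjusted p = 0.14, the highest of 13 alternatives, the lowest being 2.91e-07).

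**Figure D3:**
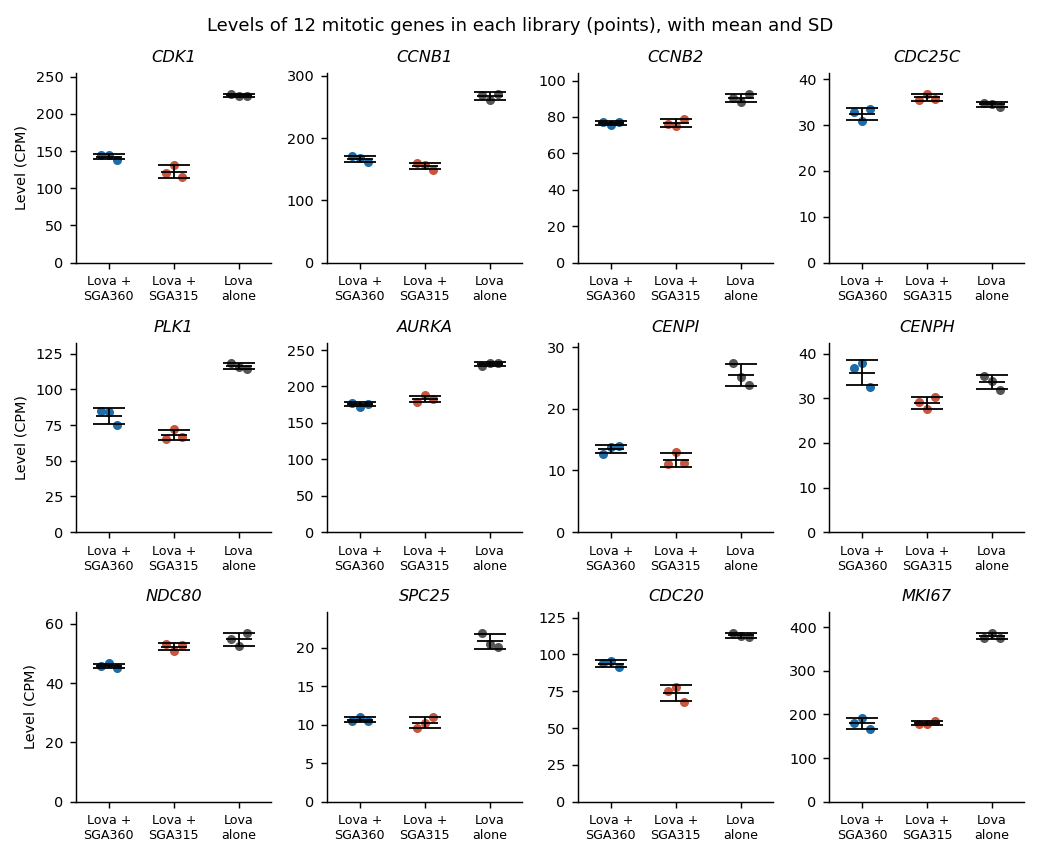
Levels in CPM of 12 mitotic genes in each of the 9 libraries (points), with the mean and SD of each group as lines, for lovastatin with SGA360, lovastatin with SGA315 and lovastatin alone. MKI67 lies between 166 and 192 CPM in the ligand libraries and above 376 CPM with lovastatin alone, while CDC25C lies between 31.0 and 36.9 CPM in all libraries.

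At the inner kinetochore and centromere the ligands gave different values. All 7 genes fell with SGA315 (median -0.53), and 5 fell with SGA360 (median -0.20). With totals-only scaling 6 were lower with SGA315 (median -0.41), and with SGA360 3 were lower and 1 higher (median -0.09). CENPI, a subunit of the constitutive centromere complex (CCAN), fell most, with 12.7, 13.9 and 13.9 CPM in SGA360 libraries, 10.99, 13.1 and 11.2 CPM in SGA315 libraries, and 27.4, 25.2 and 23.9 CPM with lovastatin alone. CENPI was 1.89-fold lower with SGA360 (log2 -0.92 ± 0.076, adjusted p = 5.23e-17) and 2.17-fold lower with SGA315 (log2 -1.12 ± 0.080, adjusted p = 5.87e-20). CENPH and CENPK, CCAN subunits that form a complex with CENPI, were not called with SGA360. CENPH had 36.7, 37.9 and 32.6 CPM in SGA360 libraries, 29.2, 27.6 and 30.2 CPM in SGA315 libraries, and 34.96, 33.95 and 31.9 CPM with lovastatin alone. The SGA360 and lovastatin libraries overlapped, and all SGA315 libraries lay below both. Its log2 fold change was 0.10 ± 0.058 with SGA360 (adjusted p = 0.129, 0.00107 to 0.622 over the alternatives) and -0.21 ± 0.062 with SGA315 (adjusted p = 0.00176). Without SGA360 replicate 3 CENPH was called higher with SGA360 (0.15, adjusted p = 0.027), and with totals-only scaling its SGA315 value was -0.09 and was not called (adjusted p = 0.172, the highest over the alternatives, the lowest being 0.000467).

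CENPK had 39.9, 41.8 and 42.9 CPM in SGA360 libraries, 33.0, 30.6 and 31.0 CPM in SGA315 libraries, and 44.5, 39.6 and 44.8 CPM with lovastatin alone. Here too the SGA360 and lovastatin libraries overlapped, with SGA315 below both. The value was -0.06 ± 0.053 with SGA360 (adjusted p = 0.356, 95% interval -0.16 to 0.05) and -0.45 ± 0.057 with SGA315. CENPM, another CCAN subunit, had 15.6, 18.3 and 14.1 CPM in SGA360 libraries, 12.1, 10.9 and 10.2 CPM in SGA315 libraries, and 18.2, 18.6 and 18.6 CPM with lovastatin alone. It fell by 0.73 ± 0.089 with SGA315. With SGA360 it fell by 0.19 ± 0.080 (adjusted p = 0.0359), a call that was lost in 6 of 13 alternatives (adjusted p 0.00164 to 0.415). These were totals-only scaling, DESeq2 and the fits without lovastatin replicate 2 (adjusted p = 0.0707), lovastatin replicate 3 (0.0624), SGA360 replicate 1 (0.0834) or SGA360 replicate 3 (0.227). CENPU fell by 0.20 ± 0.061 with SGA360, a call lost in 2 of 13 alternatives (adjusted p 0.000694 to 0.191), among them the fit without SGA360 replicate 1 (adjusted p = 0.0685), and by 0.51 ± 0.065 with SGA315. CENPN, which reads CENP-A chromatin, fell by 0.57 ± 0.037 with SGA360 and by 0.85 ± 0.039 with SGA315. CENPA, the centromeric histone H3 variant, had 14.3, 14.4 and 14.2 CPM in SGA360 libraries, 12.7, 13.5 and 11.5 CPM in SGA315 libraries, and 19.8, 18.1 and 16.7 CPM with lovastatin alone. CENPA shares exon bases with SLC35F6 (323% of its counts), CENPN with CMC2 (36.7%) and CENPU with PRIMPOL (21.7%), so these values are less certain. The log2 fold change was 0.11 for SLC35F6, -0.06 for CMC2 and 0.15 for PRIMPOL with SGA360. With SGA315 it was -0.21, -0.26 and 0.18 in the same order. For SGA360 against SGA315 it was 0.32, 0.19 and -0.03. How far shared reads add to the values of CENPA, CENPN and CENPU was not tested.

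At the outer kinetochore, which binds microtubules, 7 of 7 genes fell with SGA360 (median -0.36) and 5 of 7 with SGA315 (median -0.54). The NDC80 complex joins 4 subunits, NDC80 with NUF2 at the microtubule end and SPC24 with SPC25 at the kinetochore end. SPC25 had 10.5, 11.02 and 10.5 CPM in SGA360 libraries, 9.54, 10.2 and 10.98 CPM in SGA315 libraries, and 21.96, 20.4 and 20.1 CPM with lovastatin alone. It stood at 51.2% of its lovastatin level with SGA360 and at 49.2% with SGA315. NDC80 had 45.8, 46.6 and 45.2 CPM in SGA360 libraries, 53.0, 50.9 and 52.7 CPM in SGA315 libraries, and 54.8, 52.5 and 57.0 CPM with lovastatin alone. The SGA315 and lovastatin libraries overlapped, and those with SGA360 lay below both. NDC80 fell by 0.26 ± 0.047 with SGA360 (adjusted p = 2.92e-06), and its value with SGA315 was -0.07 ± 0.047 (adjusted p = 0.173, 95% interval -0.16 to 0.02).

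NUF2 had 24.3, 25.3 and 23.3 CPM in SGA360 libraries, 26.7, 24.5 and 28.1 CPM in SGA315 libraries, and 29.6, 27.9 and 28.5 CPM with lovastatin alone. Its SGA315 values overlapped both other groups. NUF2 fell by 0.24 ± 0.064 with SGA360 (adjusted p 0.000458 to 0.0876 over the alternatives, not called with totals-only scaling), and with SGA315 its value was -0.12 ± 0.064 (adjusted p = 0.0851). NUF2 was called lower with SGA315 under RLE scaling and without SGA315 replicate 3 (adjusted p 0.0326 to 0.999 over the alternatives). SPC24 fell by 0.33 ± 0.096 with SGA360 and by 0.64 ± 0.10 with SGA315. The SPC24 values are uncertain, since the strand setting of the counting is not given and its counts may hold reads that are not its own. KNL1, the scaffold that recruits checkpoint proteins, fell by 0.60 ± 0.050 with SGA360 and by 0.54 ± 0.050 with SGA315. CENPF, a large kinetochore-associated protein, had 159, 157 and 152 CPM in SGA360 libraries, 155, 152 and 162 CPM in SGA315 libraries, and 251, 245 and 251 CPM with lovastatin alone. CENPE, a kinetochore kinesin, fell by 0.36 ± 0.052 with SGA360 and by 0.20 ± 0.052 with SGA315, the second not called with totals-only scaling (adjusted p 0.000113 to 0.193 over the alternatives).

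All 4 genes of anaphase onset fell with both ligands, with medians of -0.73 with SGA360 and -0.77 with SGA315. PTTG1, securin, the inhibitor of separase, had 37.5, 38.5 and 36.8 CPM in SGA360 libraries, 36.5, 37.8 and 37.5 CPM in SGA315 libraries, and 68.2, 69.0 and 64.0 CPM with lovastatin alone. ESPL1, separase, had 43.3, 44.9 and 40.8 CPM in SGA360 libraries, 45.7, 46.6 and 41.3 CPM in SGA315 libraries, and 71.7, 72.4 and 76.1 CPM with lovastatin alone. For both genes the ligand groups overlapped each other and lay below lovastatin alone. PTTG1 was 1.78-fold lower with SGA360 and 1.80-fold lower with SGA315. ESPL1 was 1.70-fold lower with SGA360 and 1.65-fold lower with SGA315. PTTG1 has near-identical copies elsewhere in the genome, PTTG2 and PTTG3P, and how such reads were counted is unknown. UBE2C, the ubiquitin-conjugating enzyme of the anaphase-promoting complex, fell by 0.68 ± 0.031 with SGA360 and by 0.83 ± 0.031 with SGA315. Per kilobase of transcript it had the highest level of the 45 genes with a known length, at 187 CPM per kb with SGA360, 169.5 with SGA315 and 301 with lovastatin alone. CDC20, the activator of that complex, had 94.0, 95.8 and 91.4 CPM in SGA360 libraries, 75.3, 78.1 and 67.4 CPM in SGA315 libraries, and 115, 112 and 112 CPM with lovastatin alone. Its 3 groups were separate, and CDC20 fell by 0.27 ± 0.038 with SGA360 and by 0.62 ± 0.040 with SGA315.

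Of condensin, TOP2A and MKI67, all 7 genes fell with both ligands, with medians of -0.48 with SGA360 and -0.54 with SGA315. MKI67, the Ki-67 protein that coats mitotic chromosomes, had 180.3, 192 and 166 CPM in SGA360 libraries, 178, 179 and 186 CPM in SGA315 libraries, and 377, 388 and 376 CPM with lovastatin alone. The ligand groups overlapped each other and lay far below lovastatin alone. MKI67 was 2.11-fold lower with SGA360 (log2 -1.08 ± 0.032, adjusted p = 2.25e-40) and 2.10-fold lower with SGA315 (log2 -1.07 ± 0.032, adjusted p = 2.32e-40). NCAPH, the kleisin that closes the condensin I ring, had 33.4, 32.5 and 31.5 CPM in SGA360 libraries, 28.0, 27.6 and 28.3 CPM in SGA315 libraries, and 57.5, 57.3 and 54.8 CPM with lovastatin alone. It fell by 0.80 ± 0.050 with SGA360 and by 1.01 ± 0.053 with SGA315. The other condensin I subunits had smaller falls, NCAPD2 by 0.58 ± 0.027 with SGA360 and by 0.43 ± 0.027 with SGA315, and NCAPG by 0.43 ± 0.047 with SGA360 and by 0.56 ± 0.048 with SGA315. SMC2, an ATPase common to both condensins, fell by 0.48 ± 0.042 with SGA360 and by 0.54 ± 0.043 with SGA315. Its partner SMC4 fell by 0.47 ± 0.036 with SGA360 and by 0.49 ± 0.036 with SGA315. TOP2A, topoisomerase II alpha, had 248, 259.5 and 244 CPM in SGA360 libraries, 270.3, 268 and 279 CPM in SGA315 libraries, and 338, 324 and 341 CPM with lovastatin alone. Its 3 groups were separate, lowest with SGA360. NCAPD2 shares exon bases with MRPL51 (36.2% of its counts), NCAPG with LCORL (39.2%) and SMC4 with IFT80 (25.7%). With SGA360 the log2 fold change was -0.37 for MRPL51, 0.21 for LCORL and 0.56 for IFT80. With SGA315 it was -0.26, 0.17 and 0.67 in the same order. How far shared reads add to or mask the changes of the mitotic genes was not tested.

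All 6 genes of spindle assembly and cytokinesis fell with both ligands, with medians of -0.51 with SGA360 and -0.55 with SGA315. ECT2, the exchange factor that activates RhoA for the cleavage furrow, had 62.6, 59.2 and 62.2 CPM in SGA360 libraries, 57.9, 59.0 and 51.9 CPM in SGA315 libraries, and 102, 98.4 and 98.6 CPM with lovastatin alone. ANLN, anillin, a scaffold of the contractile ring, had 71.3, 74.6 and 74.2 CPM in SGA360 libraries, 66.7, 66.3 and 69.7 CPM in SGA315 libraries, and 113, 107 and 116 CPM with lovastatin alone. Both genes were lowest with SGA315, and in both the ligand libraries lay below lovastatin alone. ECT2 fell by 0.71 ± 0.041 with SGA360 and by 0.82 ± 0.043 with SGA315. TPX2, which activates AURKA on the spindle, fell by 0.32 ± 0.029 with SGA360 and by 0.53 ± 0.030 with SGA315. PRC1, which bundles microtubules at the midzone, fell by 0.47 ± 0.039 with SGA360 and by 0.45 ± 0.039 with SGA315, with exon bases shared with PRC1-AS1 (16.4% of its counts). PRC1-AS1 had log2 fold changes of -0.44 with SGA360 and -0.53 with SGA315. NUSAP1, a microtubule-binding protein, fell by 0.55 ± 0.040 with SGA360 and by 0.57 ± 0.041 with SGA315. HMMR, a spindle and hyaluronan-binding protein, fell by 0.25 ± 0.037 with SGA360 and by 0.18 ± 0.038 with SGA315, the second not called with totals-only scaling (adjusted p 3.17e-07 to 0.152 over the alternatives). HMMR shares exon bases with HMMR-AS1 (15.4% of its counts), which had log2 fold changes of -0.24 with SGA360 and -0.23 with SGA315.

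Set directly against each other, the ligands differed in 28 of the 46 genes, with 21 higher and 7 lower with SGA360 than with SGA315. Of all genes tested, 21.8% were called higher and 20.9% lower in this comparison. All 3 SGA360 libraries lay above all 3 SGA315 libraries in 22 genes (24.6% of all genes) and below them in 7 (24.6% of all genes). The median log2 difference was 0.09, against -0.01 over all genes, and no gene of the 46 differed by over 1.5-fold (0.511% of all genes did so in the higher direction and 0.736% in the lower). At the inner kinetochore 5 of 7 genes were higher with SGA360 and none lower, with a median of 0.31. CENPM differed most, by 0.54 ± 0.090 (adjusted p = 1.07e-06), followed by CENPK at 0.39 ± 0.056 (adjusted p = 2.82e-08), and all 3 SGA360 libraries lay above all 3 SGA315 libraries in both. CENPH, CENPU and CENPN were higher by 0.31 ± 0.060, 0.31 ± 0.066 and 0.27 ± 0.041. CENPA (0.19 ± 0.087, adjusted p = 0.0765) and CENPI (0.20 ± 0.091, adjusted p = 0.075) were not called, although each was called without SGA315 replicate 2 (adjusted p 0.0461 to 0.278 over the alternatives for CENPA and 0.0231 to 0.274 for CENPI).

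At the outer kinetochore 1 gene was higher with SGA360 and 2 lower. NDC80 was lower by 0.19 ± 0.048 (adjusted p = 0.00102) and CENPE by 0.16 ± 0.054 (adjusted p = 0.0119), while SPC24 was higher by 0.31 ± 0.11 (adjusted p = 0.0141). CDC20 was higher by 0.35 ± 0.041 (adjusted p = 1.07e-10), AURKB by 0.28 ± 0.063, PLK1 by 0.26 ± 0.044, CCNA2 by 0.24 ± 0.038, CDK1 by 0.23 ± 0.036 and NCAPH by 0.22 ± 0.058. NCAPD2 was lower with SGA360 by 0.15 ± 0.028 (adjusted p = 6.81e-06) and TOP2A by 0.12 ± 0.029 (adjusted p = 0.0007). BUB3, TTK and CDC25C were also lower, by 0.09 ± 0.035, 0.14 ± 0.057 and 0.15 ± 0.056. With DESeq2 3 genes were lower, and without SGA360 replicate 2 there were 4, against 7.

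Several of these smaller differences rested on the tool or on a library. The BUB3 call was lost in 7 of 13 alternatives (adjusted p 0.0225 to 0.174), among them the fits without SGA360 replicate 1 or 2 or SGA315 replicate 1 or 3. The TTK call was also lost in 7 (adjusted p 0.016 to 0.351), among them the fits without SGA360 replicate 2 or SGA315 replicate 1 or 2. The CDC25C call was lost with DESeq2 and without SGA360 replicate 2 or SGA315 replicate 2 (adjusted p 0.0164 to 0.145). The CENPE and SPC24 calls were lost with DESeq2 and without SGA360 replicate 1 or SGA315 replicate 3 (adjusted p 0.0027 to 0.144 for CENPE and 0.0101 to 0.136 for SPC24). ECT2, higher by 0.12 ± 0.046, lost its call with DESeq2 and without SGA360 replicate 1 or 3 or SGA315 replicate 3 (adjusted p 0.0124 to 0.277). NCAPG, higher by 0.13 ± 0.051, lost it with DESeq2 and without SGA360 replicate 1 or SGA315 replicate 2 or 3 (adjusted p 0.0156 to 0.127). ANLN lost it without SGA360 replicate 2 or SGA315 replicate 1 or 2 (adjusted p 0.00865 to 0.0791), MAD2L1 without SGA360 or SGA315 replicate 1 (0.00604 to 0.0681), and CCNB1 without SGA360 replicate 1 (0.00226 to 0.0513). HMMR, not called, was called lower without SGA315 replicate 2 (adjusted p = 0.0394).

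For 18 genes no difference between the ligands was called, which does not show that they acted alike. Their intervals bound the difference. For MKI67 the 95% interval was -0.07 to 0.06 on the log2 scale, for CENPF -0.07 to 0.06, for CCNB2 -0.08 to 0.08, for PTTG1 -0.09 to 0.12 and for BIRC5 -0.09 to 0.11. For SPC25, with about 10 CPM in the ligand libraries, it was wider, -0.13 to 0.25. For CENPA it was 0.013 to 0.36 and for CENPI 0.015 to 0.38. Before adjustment over all genes, these lay wholly on the side of higher with SGA360. After adjustment neither was called (adjusted p = 0.0765 for CENPA and 0.075 for CENPI). The CENPA value may also hold reads of SLC35F6, which was itself higher with SGA360 than with SGA315 by 0.32 ± 0.051.

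**Figure D4:**
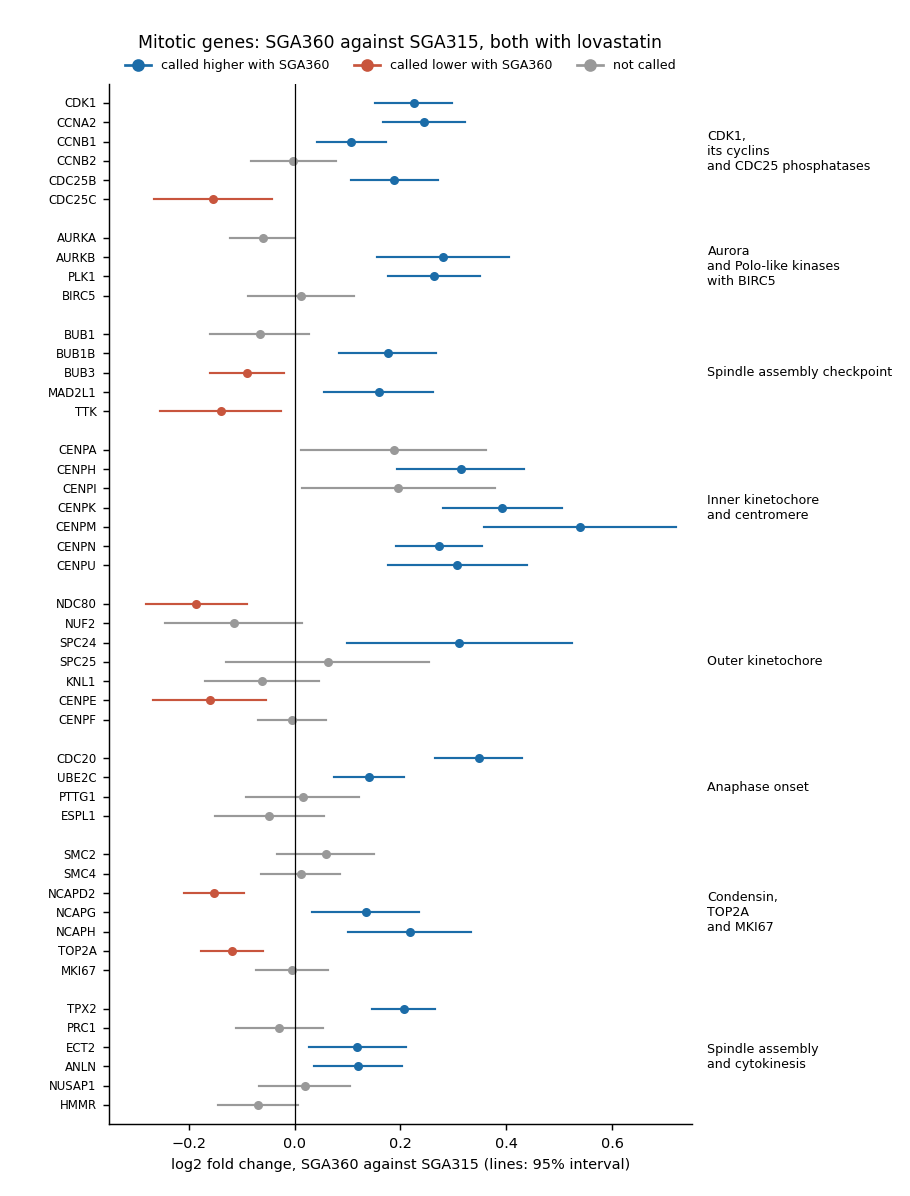
Log2 fold change of the 46 mitotic genes for SGA360 against SGA315, both with lovastatin, with lines for the 95% interval and colour for the call (blue higher with SGA360, red lower, grey not called). The 7 inner kinetochore genes all lie to the right of 0, 5 of them called, while NDC80 and CENPE of the outer kinetochore lie to the left.

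Other genes of the cell division pathway were counted from lists drawn up by known role, also with earlier results of these data known. The changes of the listed genes are read against the share of all genes called given above. Of 28 other centromere and kinetochore genes, 18 fell and none rose with SGA360 (median -0.25), and 19 fell and 2 rose with SGA315 (median -0.30). With totals-only scaling 14 were lower and 3 higher with SGA360 (median -0.14), and 16 lower and 6 higher with SGA315 (median -0.18). ZWINT, a KNL1 partner, stood at 106 ± 0.35 CPM with SGA360, 88.5 ± 3.7 CPM with SGA315 and 167 ± 3.1 CPM with lovastatin alone (SD, n = 3 each). SKA1, of the complex that helps NDC80 hold microtubules, was higher with SGA360 than with SGA315 by 0.37 ± 0.051. The gene of CENP-R was counted under its symbol ITGB3BP. All 3 subunits that are particular to condensin II fell with both ligands, led by NCAPD3 at -0.57 ± 0.034 with SGA360 and -0.73 ± 0.035 with SGA315.

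Of 17 anaphase-promoting complex genes, 9 fell and 3 rose with SGA360, and 8 fell and 5 rose with SGA315, with a median of -0.15 with SGA360 and -0.07 with SGA315. With totals-only scaling the split turned to 5 lower and 7 higher with SGA360 and 6 lower and 7 higher with SGA315. UBE2S, which extends ubiquitin chains for the complex, was 1.49-fold lower with SGA360 and 1.97-fold lower with SGA315. Of 13 cohesin genes, 5 fell and 1 rose with SGA360, and 6 fell and 5 rose with SGA315. For both lists the share over all genes was 31.4% lower and 31.4% higher with SGA360. With SGA315 it was 33.2% lower and 36% higher. Here too the split of the cohesin genes turned with totals-only scaling, to 4 lower and 6 higher with each ligand. Of all genes tested, 3138 were then lower and 6464 higher with SGA360, and 3628 lower and 6926 higher with SGA315. The shift towards higher calls was thus shared by genes as a whole and is not particular to these lists. CDCA5, sororin, which protects cohesion, fell by 0.66 ± 0.038 with SGA360 and by 0.68 ± 0.038 with SGA315. NIPBL, the cohesin loader, rose by 0.36 ± 0.033 with SGA315 and was lower with SGA360 than with SGA315 by 0.33 ± 0.033.

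Of 14 other mitotic kinases and regulators, 12 fell and 1 rose with each ligand, with medians of -0.46 with SGA360 and -0.56 with SGA315. CDC25A, the third phosphatase of its family, fell by 0.71 ± 0.050 with SGA360 and by 1.09 ± 0.053 with SGA315. NEK2, a centrosomal kinase, had 30.3 ± 1.5 CPM with SGA360, 42.7 ± 2.6 CPM with SGA315 and 41.5 ± 1.0 CPM with lovastatin alone, and was lower with SGA360 than with SGA315 by 0.49 ± 0.056 (adjusted p = 2.85e-11). Of 17 other spindle and cytokinesis genes, 15 fell with SGA360 and 14 with SGA315, and none rose, although 2 were higher with SGA315 under totals-only scaling. TACC3, which stabilises kinetochore fibres, fell by 0.63 ± 0.042 with SGA360 and by 0.67 ± 0.043 with SGA315.

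Among 15 transcription factor genes tied to G2 and M phase promoters, 5 fell and 6 rose with SGA360, and 8 fell and 5 rose with SGA315. Of all genes, 31.4% fell and 31.4% rose with SGA360, and 33.2% fell and 36% rose with SGA315. With totals-only scaling 5 were lower and 7 higher with SGA360, and 7 lower and 5 higher with SGA315. The genes named next all fell, while values in the list reached 0.375 with SGA360 and 0.62 with SGA315. MYBL2, which joins MuvB to activate late cell cycle genes, had 313 ± 13 CPM with SGA360, 201 ± 9.3 CPM with SGA315 and 500 ± 7.1 CPM with lovastatin alone. It fell by 0.67 ± 0.028 with SGA360 and by 1.31 ± 0.030 with SGA315, and was higher with SGA360 than with SGA315 by 0.64 ± 0.031. FOXM1, the forkhead activator of these genes, had 167 ± 3.0 CPM with SGA360, 146 ± 0.67 CPM with SGA315 and 231 ± 4.5 CPM with lovastatin alone, a fall of 0.46 ± 0.030 with SGA360 and of 0.66 ± 0.031 with SGA315. TFDP1, the dimer partner of E2F factors, fell by 0.67 ± 0.031 with SGA360 and by 0.88 ± 0.032 with SGA315.

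DNA replication genes, active in the preceding S phase, changed more than the mitotic genes in the median. Of 31 such genes, 28 fell and 1 rose with SGA360 (median -0.64), and 29 fell and 2 rose with SGA315 (median -0.78). Between the ligands 20 were higher with SGA360 and none lower, with a median of 0.20, against 0.09 for the 46 mitotic genes. RRM2, a subunit of ribonucleotide reductase, led the list at 3.38-fold lower with SGA360 and 3.87-fold lower with SGA315. The gap between the lists was not tested.

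**Figure D5:**
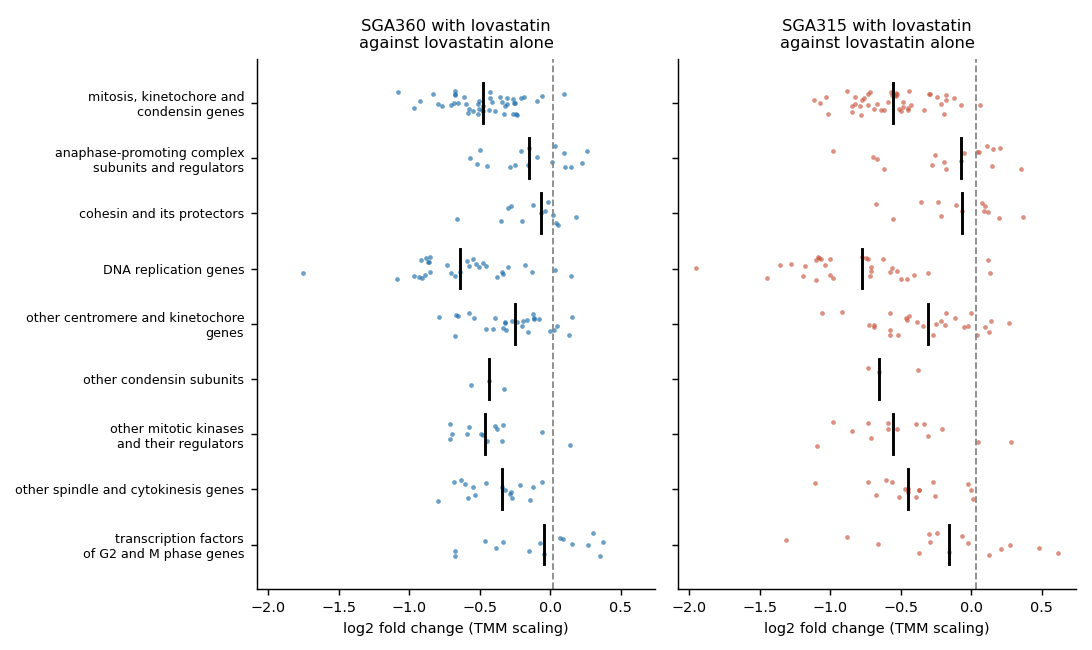
Log2 fold changes of the 46 mitotic genes and of 8 other lists of cell division genes, for SGA360 (left) and SGA315 (right) with lovastatin against lovastatin alone, with a point per gene, a bar at the median of each list and a dashed line at the median of all genes. The mitotic genes centre on -0.47 and -0.55, while the anaphase-promoting complex, cohesin and transcription factor lists have medians, with TMM scaling, between -0.16 and -0.04.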

How the data were processed

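Poly(A) RNA of 9 libraries was sequenced in 3 groups of 3, named by the labels. The deposited table holds read counts, whole numbers for 65325 RefSeq transcript entries, per the file headers. The submitters' processing notes list TopHat2 2.0.13, HTSeq 0.5.4p3 and hg19 with no role for each. For strand setting, annotation release and filters, the sources used here state nothing. RefSeq (GRCh38.p14) named 64346 entries and GENCODE 545. The remaining 434 entries (0.255% of counts) were left out of library sizes and tests. Transcripts of a gene repeat shared reads, so the entry with the highest total was used per gene. Genes with identical counts (23 sets, total at least 100) were reduced to 1 each, which dropped 43. A count of 3, the limit that a count of 0 allows, is 0.178 to 0.243 CPM, which covers counting error only. No column of sample values was unused.

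Counts were tested in R 4.3.3 with edgeR 4.0.16 (quasi-likelihood F test, TMM, filterByExpr with minimum count 10 and minimum total 15, all 9 libraries in 1 fit, no covariate). Benjamini-Hochberg adjustment covered 14678 genes. Every adjusted p is from this fit unless another is named. The fit was tested on simulated data. Alternatives were RLE or totals-only scaling, DESeq2 1.42.0, no filter, the compared groups only, a replicate block, the lowest accession per gene, and leaving out each library. The 1.5-fold test (glmTreat) was added after the data were seen. The members, lists and tests were chosen with earlier results of these data known. All members could be named, and of each other list the 3 genes with the smallest p per comparison, with FOXM1 and MYBL2. SLC35F6, FAM53C and other overlapping genes are named for their shared bases, and some items are not reported here.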

Additional observations from a re-analysis of the deposited data

How the results depend on the processing

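Each result was recomputed in 13 ways, 7 changes of the fit or table and 6 fits that leave out a library. Over these, 40 of 46 genes with SGA360, 39 with SGA315 and 25 between the ligands kept their direction and their side of the threshold each time. The count of lower genes was 41 to 43 with SGA360 when a library was left out, against 43, and 43 to 44 with SGA315. The count of higher genes with SGA360 was 0 to 1 when a library was left out and 1 with totals-only scaling (CENPH both times), and with SGA315 it was 1 with totals-only scaling (CDC25C). Against a 1.5-fold change, 10 genes were lower with SGA360, 17 with SGA315, and 0 were lower and 0 higher between the ligands. The median with SGA360 was -0.36 with totals-only scaling. The median with SGA315 was -0.571 with RLE scaling, -0.431 with totals-only scaling, -0.578 with DESeq2, and -0.578 to -0.548 when a library was left out. Between the ligands 3 genes were lower with DESeq2, and 4 to 7 were lower and 16 to 21 higher when a library was left out. The shift of totals-only scaling follows from the scaling itself, as the median of all genes moved with it, and the 1.5-fold test asks for a larger change. For the others the cause was not tested.

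Values near 0 changed sign. With totals-only scaling these were CDC25C (0.022) and CENPK (0.058) with SGA360, and NDC80 (0.05) and NUF2 (0) with SGA315. Between the ligands they were CCNB2 (0.007 with RLE, 0.003 without the filter, 0.011 with DESeq2, -0.02 to 0.018 with a library left out), CENPF (0.005, 0.001, 0.008 with these settings and -0.024 to 0.022 with a library left out) and MKI67 (0.004 with RLE, 0.006 with DESeq2, -0.057 to 0.044 with a library left out). With a library left out, BIRC5 was -0.042 to 0.062, PTTG1 -0.002 to 0.031, PRC1 -0.045 to 0, SMC4 -0.032 to 0.081 and NUSAP1 -0.011 to 0.036. None of these was called in the main fit or in a setting that changed its sign. NUF2 with SGA315 was called lower in other settings, under RLE scaling and without SGA315 replicate 3.

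No pairing of the libraries by replicate number was seen. Deviations of same-numbered libraries correlated at -0.025 to 0.046, and those of differently numbered libraries at -0.057 to 0.033. These values cannot show whether same-numbered libraries were handled together. With the replicate block 43 genes were lower and 0 higher with each ligand, with medians of -0.471 with SGA360 and -0.551 with SGA315, and 7 were lower and 21 higher between the ligands, so the block changed no count. The lowest genes, such as SPC24 near 10 CPM, have the widest errors.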
